A study of Drosophila melanogaster with 110 samples.

Results

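CP190 is a Drosophila architectural protein that does not read a long DNA motif of its own and is brought to chromatin by partner proteins. At 1707 of the 8038 CP190 regions of Kc167 cells (21.2%), Combgap (Cg) was present and none of the classical insulator proteins Su(Hw), Mod(mdg4) and CTCF was. The protein name Mod(mdg4) stands throughout for the single isoform that was profiled, which the paper places in a complex with Su(Hw). Other isoforms of Mod(mdg4) were not measured, so their absence from these regions is not known. These CP190-Combgap regions were chosen by ChIP-seq peak calls: for each protein the overlapping peaks of its 6 lists were merged, regions with a peak in 3 or more lists were kept, and a kept CP190 region became a member when it overlapped a kept Cg region by at least 1 bp and no kept region of the 3 insulator proteins. The other kept CP190 regions were 1983 with CP190 alone, 1522 with Cg and an insulator protein, and 2826 with an insulator protein and no Cg. The calls of these 5 proteins set the membership, so their values are given here as a description without a test, and the tests concern Crol, Pho, Ph, Psc, E(z), Su(z)12, Pc and H3K27me3.

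Cg is a zinc-finger protein that binds GT-rich sequence and is found at Polycomb response elements (PREs), the DNA elements that recruit Polycomb group (PcG) proteins. Crol (Crooked legs) and Pho, the fly homolog of YY1, are zinc-finger proteins that also bind PREs. Ph, Psc and Pc are subunits of Polycomb repressive complex PRC1, E(z) and Su(z)12 belong to PRC2, and E(z) deposits H3K27me3, the histone mark of silenced domains. Su(Hw), with its cofactor Mod(mdg4), and CTCF are the DNA-binding proteins and cofactor through which CP190 is best known as a component of chromatin insulators. Rump (Rumpelstiltskin) is an RNA-binding protein of the hnRNP M family.

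Kc167 is an embryo-derived Drosophila line of hemocyte type. The cells received dsRNA for 4 days, against GFP (control) or against rump (rumpRNAi), and otherwise carry no stated allele or transgene. Each of 13 targets was immunoprecipitated in 3 control and 3 rumpRNAi samples, with 2 and 2 for H3K27me3, which gave 76 peak lists. Peak lists hold no expression values, so neither the hemocyte identity nor the depletion of Rump was measured here, and the read depth of the libraries is unknown.

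Several libraries stood apart before any result. The Cg list of rumpRNAi replicate 2 held 9172 peaks with a median GC content of 56.8%, against 45.6 to 47.5% in the other 5 Cg lists, and it covered 56.4% of the members where the others covered 92.3 to 98.9%. The Pho list of the same replicate had a median GC of 61.5% against 51.5 to 58.9%. Crol lists differed by condition, with a median GC of 49.4 to 51.8% in the control and 55.3 to 56.4% in rumpRNAi. They differed in length too, with 7214 to 8903 peaks in the control and 9883 to 11117 in rumpRNAi. By the titles of the input samples, the Cg, Crol, Pho and Ph libraries numbered 2 shared one input in each condition. CP190 lists were alike, with 8069 to 8209 peaks.

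The following sequences show the DNA under the summits from which the composition of these regions was read. They are given 5′ to 3′ on dm6, and the capitals mark matches to GTGTGT (a GT repeat of the kind bound by Cg), GAGAG (read by GAGA factor), CGATA (BEAF-32), GCCAT (the core of the Pho site), GGTCACACT (Motif 1, bound by M1BP), TATCGATA (DRE, bound by DREF) and TATAAA, on either strand. TATCGATA contains CGATA, so a DRE is counted under both. The first 4 are the strongest members by their lowest CP190 percentile over the 6 lists, of those that could be printed, whose 150 bp around the CP190 summit overlap no annotated exon (ranks 3, 6, 8 and 17), on the plus strand. They lie in an intron of Sh (chrX:18018610-18018759), upstream of Hnf4 (chr2L:8709622-8709771), upstream of kra (chr3R:5601142-5601291) and upstream of zf30C (chr2L:9758126-9758275).
Sh, CP190 summit: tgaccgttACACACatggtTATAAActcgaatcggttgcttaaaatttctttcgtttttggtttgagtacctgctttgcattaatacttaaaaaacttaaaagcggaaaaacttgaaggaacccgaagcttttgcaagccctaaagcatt
Hnf4, CP190 summit: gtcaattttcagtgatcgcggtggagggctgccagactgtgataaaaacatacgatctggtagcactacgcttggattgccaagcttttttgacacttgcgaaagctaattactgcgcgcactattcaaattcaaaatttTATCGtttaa
kra, CP190 summit: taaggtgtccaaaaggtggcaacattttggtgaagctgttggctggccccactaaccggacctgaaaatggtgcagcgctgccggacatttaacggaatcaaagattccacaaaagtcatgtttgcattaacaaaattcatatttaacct
zf30C, CP190 summit: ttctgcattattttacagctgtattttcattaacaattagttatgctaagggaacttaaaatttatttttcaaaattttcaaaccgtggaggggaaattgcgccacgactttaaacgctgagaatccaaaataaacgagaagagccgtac
These windows are poor in the searched motifs, and 2 of the 4 hold none. The members at Sh and Hnf4 also overlapped insulator peaks in 1 or 2 lists, as given below for the strongest members.

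At some members the Cg summit lay far from the CP190 summit, and the next sequences show this second site at the 2 strongest such members that met the same conditions. The Cg summit at kra (chr3R:5599683-5599832), 1458 bp from the CP190 summit and outside the CP190 region itself, holds 2 overlapping matches to the GT repeat and 2 to GAGAG. The Cg summit at wkd (chr3R:11582009-11582158), 548 bp from the CP190 summit, holds no GT repeat and 1 match each to CGATA and TATAAA. The member at wkd had a CTCF peak in 2 lists.
kra, Combgap summit: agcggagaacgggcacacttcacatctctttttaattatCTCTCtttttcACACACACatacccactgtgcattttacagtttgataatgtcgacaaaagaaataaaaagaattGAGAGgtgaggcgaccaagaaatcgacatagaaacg
wkd, Combgap summit: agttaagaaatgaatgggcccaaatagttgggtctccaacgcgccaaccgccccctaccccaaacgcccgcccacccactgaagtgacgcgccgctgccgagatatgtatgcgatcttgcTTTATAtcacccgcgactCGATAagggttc
The 100 bp before a transcription start of rump (chr3R:9510325-9510424) and Agpat4 (chr3L:16381571-16381670), printed on the strand of the gene picked after their values were seen, show that starts of members differ in composition: rump has 3 matches to CGATA and none to the GT repeat, and Agpat4 has 2 matches to the GT repeat and none to CGATA.
rump, upstream: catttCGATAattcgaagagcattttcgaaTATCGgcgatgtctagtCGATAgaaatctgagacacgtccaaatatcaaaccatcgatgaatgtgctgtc
Agpat4, upstream: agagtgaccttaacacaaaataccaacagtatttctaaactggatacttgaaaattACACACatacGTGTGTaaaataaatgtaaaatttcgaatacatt

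CP190-Combgap regions lay at promoters. A transcription start was inside 1550 of them (90.8%), whereas 78.0% of the regions with CP190 alone, 56.9% of those with Cg and an insulator protein, and 21.6% of those with an insulator protein and no Cg held one. The other members were in introns (83), exons (50) or between genes (24). Starts on both strands, as at divergent gene pairs, were found at 774 members (45.3%) and at 29.9% of the regions with CP190 alone. The starts inside members belonged to 2420 annotated genes, 95.9% of them protein-coding, and 16.6% of all 13986 protein-coding genes had a member at a start. Members were wider than regions with CP190 alone, with a median of 737 bp against 565 bp, and a wider region meets starts and peaks more easily. Their median GC content was 41.4%, against 39.2% with CP190 alone and 43.2% with Cg and an insulator protein. The X chromosome held 24.9% of the members and 19.2% of all kept CP190 regions, and chromosome 4 held 1 member.

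CP190 sat just upstream of the start, and Cg, Crol and Pho often sat inside the gene. At the 776 members with starts on a single strand, the CP190 summit (the median over the lists with a peak) was upstream in 85.3%, with a median position of -40.0 bp and quartiles of -78.0 and -13.0 bp. The Cg summit at the same members had its median 24.0 bp inside the gene with an upper quartile of 251 bp, and 37.8% of Cg summits lay over 100 bp downstream of the start, against 2.58% of CP190 summits. Crol summits, at the 504 of these members with a kept Crol region, had their median 142 bp inside the gene and 53.2% over 100 bp downstream. Pho summits, at 225 members, had their median at 48.5 bp and 42.7% over 100 bp downstream. The start used is the one nearest to the CP190 summit, which favours short CP190 distances.

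**Figure D1:**
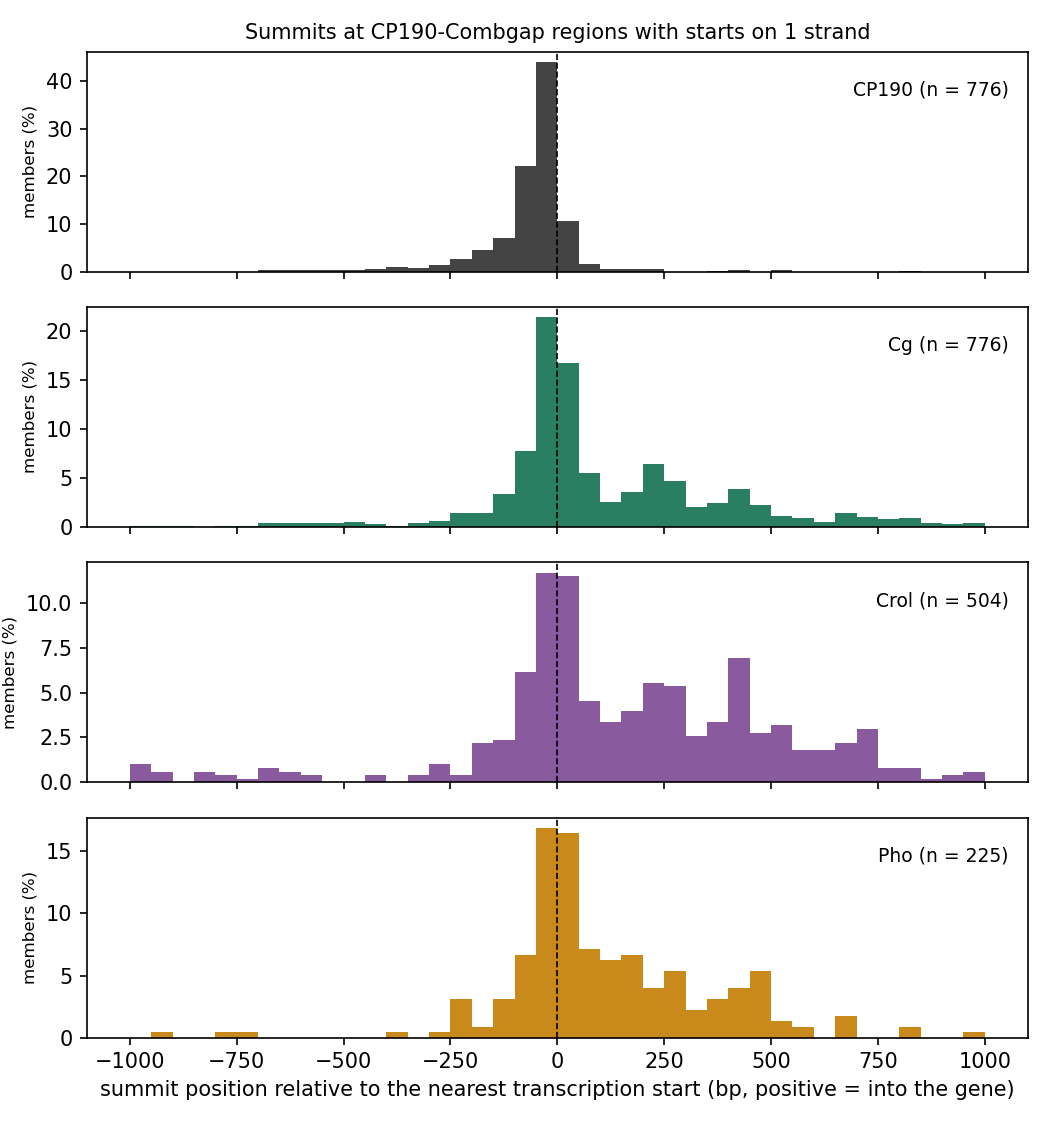
Histograms of summit positions relative to the nearest transcription start (x axis, bp, positive into the gene, bins of 50 bp) as a percentage of members (y axis), for CP190, Cg, Crol and Pho at CP190-Combgap regions with starts on 1 strand. The CP190 summits form 1 peak just upstream of the start, and the other 3 proteins have a peak at the start and a long shoulder into the gene. Summits farther than 1000 bp are not drawn.

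The distance between the CP190 and the Cg summit divided the members into groups of about equal size. It was at most 50 bp at 577 members (33.8%), 51 to 300 bp at 560, and over 300 bp at 570 (33.4%), with a median of 121 bp. The 3 groups were alike in promoter location (90.8, 90.2 and 91.4% at a start) and in the median CP190 percentile (49.5, 41.8 and 46.1), where the percentile is the rank of a fold enrichment within its list, 100 being the highest. Their Cg values were further apart. The median Cg percentile was 40.7 where the summits coincided and 82.1 where they were over 300 bp apart, and a Cg peak was listed in all 6 libraries at 32.1% and 76.3% of them. Kept Crol was at 58.9% of the first and 77.2% of the last, and kept Pho at 26.0% and 35.6%. Regions with distant summits were also wider (860 bp against 655 bp) and more often had starts on both strands (53.0% against 37.1%).

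DNA composition differed between the summits in the same way. Where the summits were over 300 bp apart, 73.7% of the 300 bp windows at the Cg summit held GTGTGT on either strand, against 17.7% at the CP190 summit and 15.7% of the promoters of all protein-coding genes (250 bp before to 50 bp after the start). GAGAG was in 52.1% of the same Cg windows and in 27% of the CP190 windows. The CP190 windows held the promoter motifs instead: CGATA in 61.9% against 33.9% at the Cg summit, DRE in 19.8% against 3.51%, Motif 1 in 13.9% against 1.05%. Where the summits lay within 50 bp, the GT repeat was in 23.6% of the Cg windows and CGATA in 67.9%. The median GC content of the windows was 46.8% at the distant Cg summits, 37.3% at the CP190 summits of the same members and 38.0% in all promoters. A motif match describes the letters of the window and not binding.

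**Figure D2:**
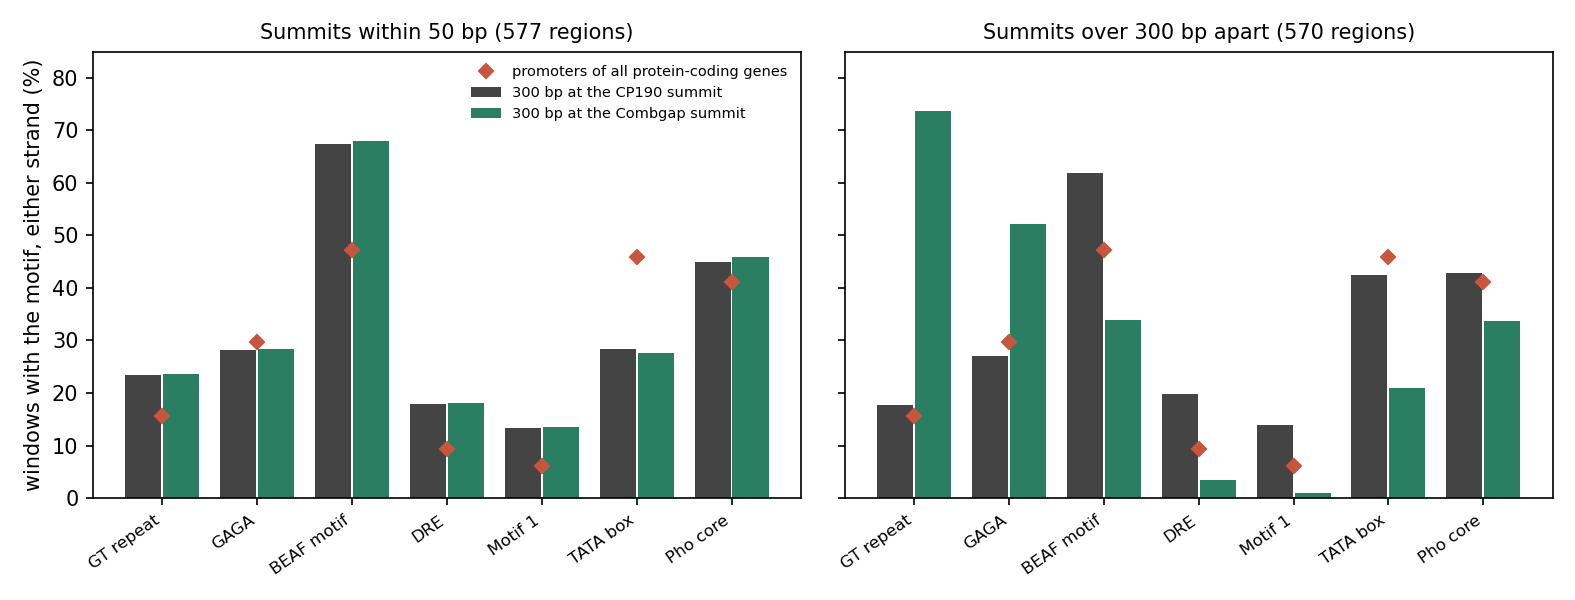
Percentage of 300 bp windows with each motif on either strand (y axis) at the CP190 summit and at the Combgap summit of CP190-Combgap regions, for members whose summits lie within 50 bp (left) and over 300 bp apart (right). Diamonds give the percentage among promoters of all protein-coding genes. The GT repeat is in 73.7% of the distant Combgap windows and 17.7% of the CP190 windows of the same members.

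Over all members, CGATA was in 64.6% of the CP190 windows, against 55.4% with CP190 alone, 38.8% with Cg and an insulator protein, 27.3% with an insulator protein and no Cg, and 47.3% of promoters. DRE followed the same order, with 19, 13.9, 6.64 and 1.13%, and 9.36% in promoters, as did Motif 1, with 14.0, 10.1, 5.72 and 0.531%, and 6.04% in promoters. The share of regions at a transcription start fell in the same order of classes, with 90.8, 78.0, 56.9 and 21.6%. Whether the motif shares differ among regions at starts was not tested. At the Cg summit, members and kept Cg regions without CP190 were alike for the GT repeat (46.6% and 45.0%) and far apart for DRE (11.0% and 0.376%), with median GC contents of 45.0% and 51.3%. GCCAT was in 59.5% of the windows at the Pho summits of the 546 members with kept Pho, with a median GC of 48.0%. It was in 43.1% of the windows at the CP190 summits of all 1707 members, with a median GC of 39.3%.

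CP190 was called at the members in nearly every library. Between 94.4 and 98.5% of members had a CP190 peak in a given list, 1557 (91.2%) had one in all 6, and the median CP190 percentile was 44.2 to 47.2 per library. The medians of both conditions overlapped. Cg was called at 92.3 to 98.9% of members in 5 libraries and at 56.4% in rumpRNAi replicate 2, and 945 members (55.4%) had Cg in all 6 lists. At the edge of the rule, 49 members had CP190 in 3 lists, with a median width of 376 bp and a median percentile of 7.82, and 38 regions with CP190 in 2 lists and otherwise the same calls fell outside, with 339 bp and 7.12. For Cg, 106 members overlapped a Cg region of 3 lists, and 128 regions just outside overlapped one of 2 lists. The absence of insulator proteins was not complete: 430 members (25.2%) overlapped a peak of Su(Hw), Mod(mdg4) or CTCF in at least 1 list, most often of Mod(mdg4) (218 in 1 list and 127 in 2), and 1277 overlapped none.

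Ranked by the lowest CP190 percentile over the 6 lists, the first 10 of the 857 members with peaks in all 6 CP190 and all 6 Cg lists were at Agpat4, Nsf2, Sh, Papst2, Rbf, Hnf4, CG4022, kra, wkd and CG9586. Only the one in Sh, which encodes a voltage-gated potassium channel, was away from a start (intron, 3450 bp from the nearest start). Some of the 10 had insulator peaks in fewer lists than the rule excludes. CTCF had a peak in 1 list at Agpat4 and in 2 at Sh and wkd. Mod(mdg4) had one in 1 list at Sh and in 2 at Nsf2 and Hnf4. At Agpat4, an acyltransferase of phospholipid synthesis (chr3L:16381057-16382023), CP190 fold enrichment over input was 9.71, 18.1 and 11.3 in the control and 11.2, 11.4 and 10.8 in rumpRNAi. Cg there was 5.97, 7.26 and 6.07 in the control and 5.70, 3.75 and 5.73 in rumpRNAi, and Crol was in no list. CP190 overlapped between the conditions, and each Cg value of rumpRNAi was below the lowest of the control, with no test of this region. At Nsf2, an ATPase that takes apart SNARE complexes (chr3R:13837549-13838294), CP190 was 13.0, 13.7 and 11.4 in the control and 11.2, 10.3 and 12.4 in rumpRNAi, with the Cg summit 4 bp away and neither Crol nor Pho in any list.

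Rbf, the fly retinoblastoma protein and a brake on cell-cycle entry, had the opposite layout (chrX:801123-802129). Its Cg summit was 650 bp from the CP190 summit, Cg was 11.7, 14.6 and 13.6 in the control and 14.2, 12.9 and 14.3 in rumpRNAi, and Crol was in all 6 lists at 2.29, 5.14, 5.27, 3.78, 3.84 and 4.23. The values of both conditions overlapped. At kra, a regulator of translation (chr3R:5600554-5601748), Pho was among the strongest of these 10, with 20.1, 18.8 and 18.5 in the control and 20.2, 11.5 and 24.4 in rumpRNAi. The lowest of these, 11.5, was rumpRNAi replicate 2. At CG4022 and the divergent Cpsf5, which encodes a subunit of the pre-mRNA cleavage factor (chr3L:9410396-9411359), Pho was 19.1, 13.5 and 19.4 in the control and 20.4, 10.0 and 19.5 in rumpRNAi, again lowest in that library. Of the 10, 5 had no Crol peak in any list and 4 had no Pho peak.

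Genes of general cell growth had members at their starts more often than the 16.6% of all protein-coding genes, and developmental Polycomb targets almost never. Cytosolic ribosomal protein genes had a member at 31 of 92 (33.7%), among them RpS30 and RpL14. Mitochondrial ribosomal protein genes had 22 of 73 (30.1%), led by mRpL11 and mRpL22, and proteasome subunit genes 14 of 48 (29.2%), led by Rpn1 and Rpn6 of the regulatory particle. DNA replication genes had 10 of 28 (35.7%), with Cdc6, which loads the replicative helicase, the GINS subunit Psf3, the origin recognition subunit Orc1 and Mcm6. Translation initiation factors had 12 of 44 (27.3%), aminoacyl-tRNA synthetases and vacuolar ATPase subunits 7 of 33 each (21.2%), and respiratory complex I 5 of 40 (12.5%), below the background. The regulator genes that are classical Polycomb targets had 1 of 75 (1.33%), at grn, which encodes a GATA factor and had CP190 in 3 of 6 lists, the fewest the rule allows. They were as rare in the other classes, with CP190 alone at 1 of these genes and CP190 with an insulator protein at 2. Ecdysone response genes had 3 of 18 (16.7%), namely Hr39, usp and Hr78, and hemocyte genes 2 of 17 (11.8%), the scavenger receptor gene crq and the receptor tyrosine kinase gene Pvr. These counts are a description and are not particular to the members. Regions with CP190 alone were at more genes than members were for mitochondrial ribosomal proteins (31 against 22), the proteasome (16 against 14), DNA replication (12 against 10), aminoacyl-tRNA synthetases (15 against 7) and complex I (19 against 5), and at fewer for cytosolic ribosomal proteins (19 against 31), translation initiation factors (9 against 12) and vacuolar ATPase subunits (4 against 7).

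**Figure D3:**
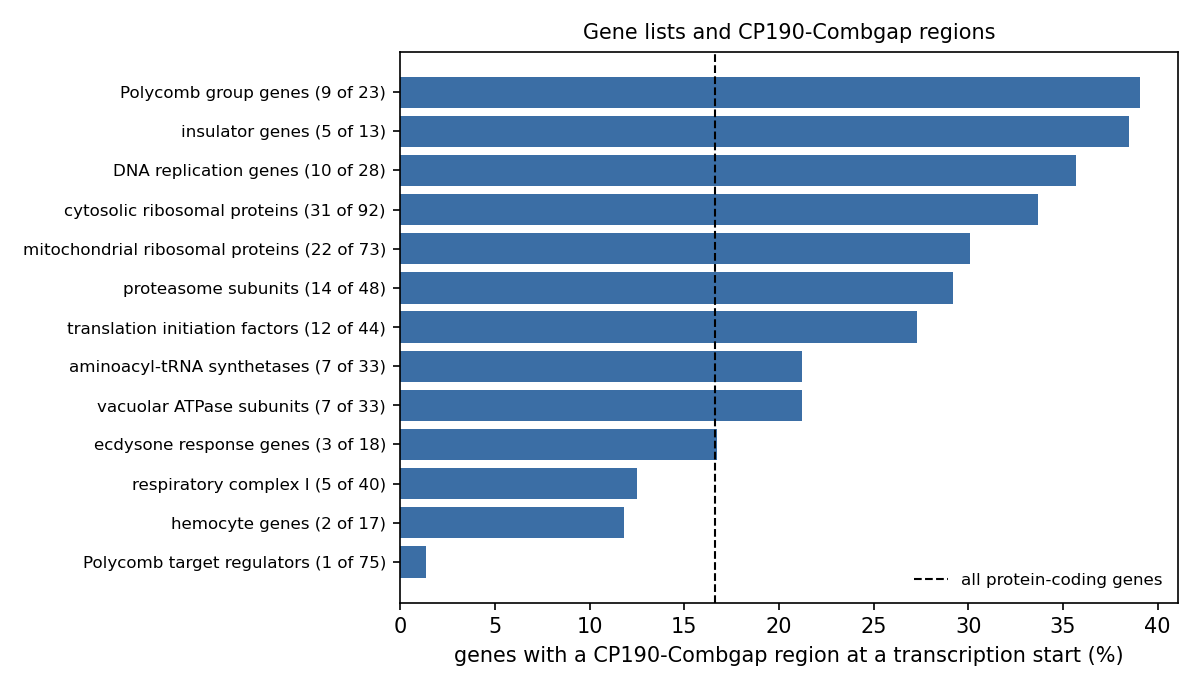
Percentage of the genes of each list with a CP190-Combgap region at an annotated transcription start (x axis), with the number of genes in parentheses. The dashed line is the 16.6% of all protein-coding genes, and Polycomb target regulators stand lowest at 1.33%.

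Of the 14 genes of the studied proteins and rump, 4 had a member at a start: rump, Cp190, crol and mod(mdg4). Of the Polycomb group genes, 9 of 23 (39.1%) had a member at a start, with Jarid2, Asx, esc and Sfmbt the strongest by CP190. Of the insulator genes, 5 of 13 (38.5%) had one: Chro, BEAF-32, rump, Cp190 and mod(mdg4). Regions with CP190 alone were at 5 Polycomb group and 2 insulator genes, and regions with an insulator protein at 3 and 5. At the start of rump, the gene targeted by the dsRNA (chr3R:9510024-9510688), CP190 fold enrichment was 6.42, 6.13 and 4.37 in the control and 4.96, 6.25 and 6.27 in rumpRNAi, so the conditions overlapped. Cg at rump was 3.71, 3.98 and 3.74 in the control and 3.89 and 4.08 in rumpRNAi, with no peak in replicate 2. Pho was strong there, with 15.4, 13.5 and 15.0 in the control and 16.6, 8.64 and 17.2 in rumpRNAi, the lowest value again in replicate 2. Crol had a peak in 1 list of each condition.

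At the start of crol (chr2L:11809092-11809714), Crol itself was 7.01, 11.8 and 14.8 in the control and 13.8, 14.0 and 9.14 in rumpRNAi, and Cg was 16.7, 19.1 and 16.0 against 19.4, 21.1 and 18.7, both overlapping. At Cp190 (chr3R:15274750-15275630), CP190 was 5.93, 6.42 and 3.66 in the control and 4.85, 5.46 and 6.01 in rumpRNAi. At mod(mdg4) (chr3R:21377239-21377755), Crol was 2.86, 5.52 and 7.17 in the control and 5.04 in rumpRNAi replicate 1, with no peak in the others. The starts of cg, su(Hw) and Pc were in regions with Cg and an insulator protein, the start of CTCF in a region with an insulator protein and no Cg, and those of E(z) and Su(z)12 in regions with CP190 alone. No kept CP190 region was at a start of pho, ph-p, ph-d or Psc.

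Crol and Pho were far more frequent at CP190-Combgap regions than at regions with CP190 alone. Crol had a peak at 60.0, 74.8 and 69.4% of the members in the control libraries and at 61.5, 45.2 and 47.8% in rumpRNAi, while the regions with CP190 alone reached 6.66 to 16.5% over the 6 libraries. The 2 ranges did not meet. The difference was 48.6 percentage points (SD 7.93, n = 6 libraries) and went the same way in 6 of 6 libraries (exact two-sided sign-flip test over libraries, p = 0.0312, the smallest that 6 libraries allow, adjusted p = 0.0357 over 8 targets). Pho had a peak at 33.9, 20.5 and 41.7% of members in the control and at 31.7, 10.9 and 29.3% in rumpRNAi, and at 1.41 to 4.54% of the regions with CP190 alone. Its difference was 25.0 points (SD 9.80, n = 6, exact test, adjusted p = 0.0357). In windows of 500 bp centred on the CP190 summit, an alternative chosen after seeing the data that gives both classes the same width, the differences were 45.5 points for Crol and 22.7 for Pho, and at regions with a transcription start 47.6 and 23.9. Pho and Cg libraries of the same number share an input, as do Crol and Cg of replicate 2, so these libraries are not independent of those that set the membership.

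**Figure D4:**
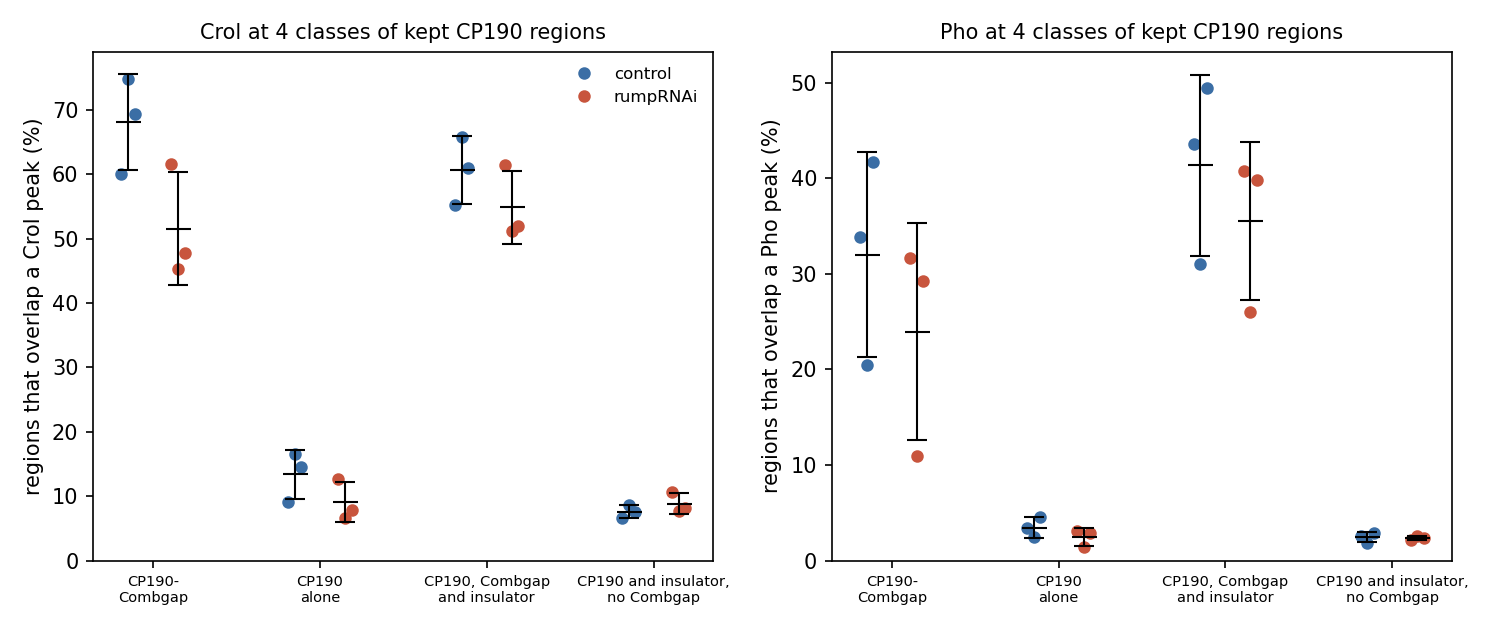
Percentage of regions that overlap a Crol peak (left) or a Pho peak (right), y axis, in 4 classes of kept CP190 regions. Each point is 1 library, blue for control and red for rumpRNAi, with the mean and SD of 3 libraries in black. With CP190 alone no library exceeds 16.5% for Crol or 4.54% for Pho, and at CP190-Combgap regions the lowest are 45.2% and 10.9%.

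By kept regions, 486 members (28.5%) had both Crol and Pho, 686 (40.2%) Crol without Pho, 60 (3.51%) Pho without Crol and 475 (27.8%) neither. Pho was thus rare without Crol in the members and in the pool of all kept CP190 regions (1121 with both and 219 with Pho alone). Regions without Cg went the other way. With CP190 alone, 26 had both and 37 had Pho without Crol. With an insulator protein and no Cg, the counts were 35 and 45. The members with both had the strongest Cg, with a median percentile of 75.3 against 53.8 with Crol only and 44.0 with neither, and the strongest CP190, with 51.4, 46.2 and 40.6. Crol summits lay nearer to Cg than to CP190: the median distance was 97.5 bp from the Cg summit and 290 bp from the CP190 summit at 1172 members. For Pho the medians were 55.2 and 121 bp at 546 members. Against regions with Cg and an insulator protein, the members had about the same share with Crol (59.8% against 57.8% as the mean of 6 libraries, a mean difference of 2.02 points, higher in 4 of 6 libraries) and a lower share with Pho (28.0% against 38.5%, lower in 6 of 6). These 2 comparisons carry no test.

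The shares of both conditions overlapped at the members. The Crol share of the members was 68.1% ± 7.48 (SD, n = 3) in the control and 51.5% ± 8.75 (n = 3) in rumpRNAi, a difference of -16.5 points (exact two-sided permutation test, p = 0.2, where 3 against 3 cannot go below 0.1, adjusted p = 0.8 over 8 targets). Replicate 1 of rumpRNAi, at 61.5%, was above replicate 1 of the control, so the groups overlapped. The Pho share was 32.0% ± 10.7 and 24.0% ± 11.4 (difference -8.05 points, exact p = 0.400, adjusted p = 0.8). Without rumpRNAi replicate 2 the Pho difference was -1.51 points. The Crol difference was -4.32 points at regions with CP190 alone and -5.76 at those with Cg and an insulator protein, and whether these differ from the -16.5 points of the members was not tested.

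At single regions, Crol had a peak in all 3 control lists and in none of the rumpRNAi lists at 70 members (4.10%), against 107 of all 8038 kept CP190 regions (1.33%). The opposite pattern was at 0 members and at 25 of all kept CP190 regions (0.311%). Neither pattern can arise without a Crol peak. No list had one at 381 members (22.3%) and at 4808 of all kept CP190 regions (59.8%), which include the members. The 70 members were lower in GC, with a median of 39.5% against 42.5% at the 684 members with Crol in all 6 lists, and CP190 and Cg were still called there: CP190 at 97.1 to 100% in each library, Cg at 91.4 to 100% in 5 libraries and at 52.9% in rumpRNAi replicate 2. The 5 with the highest Crol were at Lam, pum, CG3277, Cerk and CG8441. At Lam, the B-type lamin gene (chr2L:5542085-5542757), Crol was 9.69, 15.4 and 19 in the control libraries and had no peak in rumpRNAi, although its lowest control value was at percentile 98.9 of its list. At pum, the gene of the translational repressor Pumilio (chr3R:9237494-9238031), Crol was 10.6, 9.35 and 14.4, and at Cerk, which encodes ceramide kinase (chr3R:5368006-5368709), 8.10, 8.47 and 13.9. These presence calls have no test. At the Crol summits of the 70 members CGATA was in 65.7% of the windows, against 45% at the 684 members with Crol in all 6 lists. These windows had median GC contents of 42.2 and 50.0%. The Crol summits of the 70 lay a median of 137 bp from the CP190 summit, against 290 bp at the 1172 members with kept Crol. CGATA was in 64.6% of the CP190 windows of all members. The count of 70 (control only) was 125 without control replicate 1 and 198 without rumpRNAi replicate 1, where the rule asks for fewer lists, and 122 with lists cut to equal length.

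For Pho the same pattern was at 3 members, in regions of MESK2, BRWD3 and Glo1, against 4 of all kept CP190 regions (0.0498%), and the opposite one at 0 members and 0% of all. No list had a Pho peak at 890 members (52.1%) and at 6152 of all kept CP190 regions (76.5%). At MESK2, Pho was 4.19, 6.48 and 3.82 in the control libraries. Without control replicate 2 the count at members was 43, without rumpRNAi replicate 1 it was 8 (and 2 with the opposite pattern), without rumpRNAi replicate 3 it was 8, and without control replicate 1 it was 5.

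Crol strength was lower in rumpRNAi at many Crol regions that overlapped a member, and so it was at other Crol regions of like GC content below 50%. Among the 4981 Crol regions with a peak in all 6 lists, limma called 438 higher (8.79%) and 531 lower (10.7%) in rumpRNAi at a Benjamini-Hochberg adjusted p under 0.05. Of these regions 791 overlapped a member, and 123 of the 791 were lower and 3 higher. The 791 are merged Crol regions, while 684 members had a Crol peak in all 6 lists. The strength of a Crol or Pho region is that of its highest peak in each list, which can lie outside the member. The median log2 difference was -0.24 at the 791 and -0.06 over all regions, and the difference was negative at 80.3% of the 791. Crol regions at members had a median GC of 46.1%, against 51.2% at the others. Under 42% GC, the median log2 difference was -0.40 at 133 of the 791 and -0.40 at 330 other regions, and 39.1% and 35.2% were called lower. From 42 to 46% it was -0.28 and -0.30, and from 46 to 50% it was -0.19 and -0.20. From 50 to 54% it was -0.10 at 126 of the 791 and -0.03 at 766 other regions, and 7.14% and 3.26% were called lower. From 54% upward it was 0.02 at 63 of the 791 and 0.37 at 1559 other regions. After a GC correction within each library, 0 of the 4981 regions were called by limma (858 had an unadjusted p under 0.05, 120 of them at members) and the median at members was -0.01. The count of regions called at members also rested on the libraries, with 6 without rumpRNAi replicate 2, 5 without rumpRNAi replicate 3 and 64 without control replicate 1. Of the 541 regions that overlapped a member without any insulator peak, an alternative also chosen after seeing the data, 99 were lower and 3 higher.

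**Figure D5:**
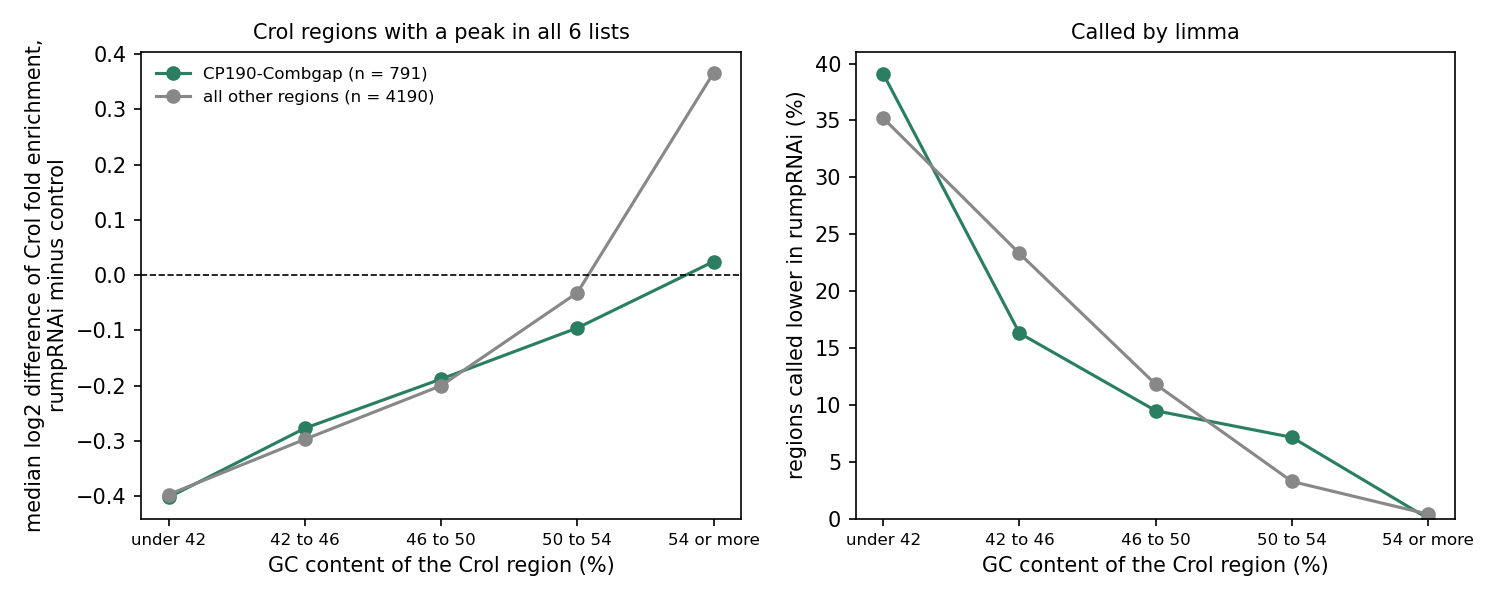
Crol regions with a peak in all 6 lists, grouped by GC content (x axis, %), at CP190-Combgap regions and elsewhere. Left, the median log2 difference of Crol fold enrichment, rumpRNAi minus control. Right, the percentage called lower in rumpRNAi by limma. Towards low GC both lines fall on the left and rise on the right, and in the median the Crol regions at members lie below the other regions from 50% GC upward.

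The Crol regions at members with the largest called differences were at mRpL37, an INE-1 transposable-element insertion (Crol region chr2L:21250342-21251263), Cap-H2, drn and Pvr on the lower side. At mRpL37, a mitochondrial ribosomal protein gene, Crol fold enrichment was 3.52, 4.40 and 3.99 in the control and 2.74, 2.2 and 1.87 in rumpRNAi, without overlap (log2 difference -0.92 after centring, SE 0.19, limma adjusted p = 0.0017). At Cap-H2, a subunit gene of condensin II, it was 4.12, 4.32 and 5.09 against 3.3, 2.73 and 2.07, again without overlap (log2 difference -0.86, SE 0.19, adjusted p = 0.0041). At Pvr it was 4.23, 5.18 and 4.26 against 2.96, 2.90 and 2.29 (log2 difference -0.85, SE 0.19, adjusted p = 0.0041). The Crol regions there had GC contents of 44.9, 42 and 37%. The 3 higher Crol regions were at CG9581, CG9776 and CG12084, with 52.8 to 56.8% GC. At CG9581 Crol was 2.19, 3.32 and 2.76 in the control and 5.16, 5.45 and 4.46 in rumpRNAi (log2 difference 0.77, SE 0.19, adjusted p = 0.0062).

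Pho strength gave no call. Among 2125 Pho regions with a peak in all 6 lists, limma called 0% higher and 0% lower, with 26 at an unadjusted p under 0.05, and 0 of the 170 at members (2 at an unadjusted p under 0.05). The median log2 difference at members was -0.09 and turned to 0.27 without rumpRNAi replicate 2. The largest values downward were at CycT (the cyclin of the elongation kinase P-TEFb), RpL7 and Zif. At CycT, Pho was 12.35, 11.75 and 10.96 in the control and 10.85, 4.06 and 11.32 in rumpRNAi, so that a single library was low. The largest upward were at Acn, mRpL4 and CG9213, with log2 differences of 0.42 to 0.45.

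PcG complexes were scarce at CP190-Combgap regions but scarcer at CP190 alone. Ph had a peak at 1.64 to 1.87% of members in the control and at 0.586 to 1.64% in rumpRNAi, and its share was 1.39 points above that of CP190 alone (SD 0.473, n = 6, higher in 6 of 6 libraries, exact sign-flip test, adjusted p = 0.0357). The same adjusted p, the smallest possible, and the same direction in 6 of 6 libraries were found for Psc (0.557% of members against 0.0168%), E(z) (0.361% against 0.00840%), Su(z)12 (1.26% against 0.0840%) and Pc (3.39% against 0.269%). Some of these shares are few regions. Per library, Psc had a peak at 5 to 12 members and E(z) at 4 to 8, each with 0 or 1 at CP190 alone. Kept Psc was at 9 members and kept E(z) at 6, so the agreement of the libraries rests on few regions. Among regions with a transcription start the differences were 0.731 points for Ph, 0.215 for Psc, where all members gave 0.54, and 0.151 for E(z), where they gave 0.353. Among regions with CP190 in all 6 lists they were 0.32 points for Psc and 0.214 for E(z). With lists of equal length they were 0.276 points for Su(z)12, where full lists gave 1.18, and 1.81 for Pc, where they gave 3.12. The adjusted p of the exact test stayed at 0.0357 in each of these. H3K27me3 went the other way, with 1.04% of members against 1.56%, lower in 4 of 4 libraries (difference -0.523 points, SD 0.238, exact p = 0.125, the smallest that 4 libraries allow). Regions with Cg and an insulator protein had higher shares for Ph (7.68%), Psc (2.47%), E(z) (2.06%), Su(z)12 (5.19%), Pc (5.97%) and H3K27me3 (5.88%). Between control and rumpRNAi the 6 shares of the members differed by -0.68 to -0.02 points, with exact permutation p from 0.2 to 1 and adjusted p from 0.8 to 1.

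Kept regions of the 8 tested targets were absent from 469 members (27.5%) and from 82.7% of the regions with CP190 alone. Ph was kept at 27 members, 19 of them outside kept H3K27me3, Pc at 67 and H3K27me3 at 19. The median distance to the nearest kept H3K27me3 region was 155419 bp, against 180492 bp from regions with CP190 alone, and 2.05% and 3.54% lay within 2 kb of one.

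Kept Crol, Pho, Ph and Psc met at 6 members. The strongest by Ph was 6613 bp from the start of lncRNA:CR43302 (chr3R:8190911-8191278), with Ph at 32.8, 38.8 and 38.4 in the control and 40.1, 22.3 and 38.0 in rumpRNAi. The member at grn, the GATA factor gene (chr3R:8181419-8181848), was close by, and Ph there was 26.3, 34.3 and 26.4 in the control and 33.1, 31.1 and 32.5 in rumpRNAi. Both had CP190 in 3 of 6 lists, and both had Crol, Pho, Ph, Psc, E(z), Su(z)12 and Pc in all 6 lists and H3K27me3 in all 4, and the conditions overlapped at both. At slgA, which encodes proline dehydrogenase (chrX:21373529-21374317), Ph was 34.1, 27.6 and 35.7 against 23.1, 8.67 and 26.6, without overlap but with no test of this region. At Rh5, a rhodopsin gene (chr2L:12010589-12011135), Ph was 20.3, 16.2 and 20 against 13.2, 5.75 and 17.2, with H3K27me3 and E(z) in no list. At Su(z)2, a paralog of Psc (chr2R:12998651-12999242), Ph was 10.9, 11.7 and 16.2 against 7.97 and 11.8, with no peak in rumpRNAi replicate 2.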

How the data were processed

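ChIP-seq peaks were analysed for 13 targets in Kc167 cells, 3 control and 3 rumpRNAi samples each, with 2 and 2 for H3K27me3. Reads had been trimmed (Trim Galore 0.6.7), aligned to dm6 (Bowtie2 2.5.3) and filtered for mapping quality of 20 or more with SAMtools, and peaks had been called per replicate against input by MACS2 2.2.7.1, per the submitters' processing notes and the study's methods. The deposited values used are the fold enrichment over input, a ratio made by the authors' peak caller, and −log10 q, which the authors' lists carry in a column of their own. Fold enrichment depends on the input, on GC content and on depth, and no read depth is in the lists. Inputs have no peak lists, and 17 inputs titled as rump knockdown carry a control dsRNA label and were left unassigned. The titles call the samples biological replicates and do not say whether they came from separate cultures, so p-values measure the spread between these samples, which may be technical. Peak names inside the Psc, E(z) and Su(z)12 lists carry other replicate numbers than the labels, which were followed.

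Peaks were merged, classed and annotated in Python 3.11.15 with scipy 1.17.1, the Ensembl 115 annotation and the RefSeq dm6 sequence, whose arm lengths hold all peaks on the 7 arms. Regions are named by the gene with the nearest start to the CP190 summit. The regions named are the 10 members strongest by their lowest CP190 percentile, up to 5 called Crol or Pho changes each way (3 each way as values where none is called), up to 5 members with Crol in one condition only, up to 4 genes a list, 5 members with Crol, Pho, Ph and Psc, and the genes of the targets. Shares were compared by exact permutation tests over libraries. Crol and Pho strength was compared by limma 3.58.1 (R 4.3.3) on log2 fold enrichment, centred on the library median, over all regions with a peak in all 6 lists. The fit was tested on simulated data with independent noise and no GC shift between libraries. That simulation cannot show how the fit behaves under the GC difference of the Crol lists. The members and gene lists were chosen with earlier results of these data known. Alternatives were lists of equal length, −log10 q of 5 or more, overlap of at least 50% of the shorter interval, other list minimums, quantile normalization, GC correction, the replicate block and each library left out. Same-numbered Pho libraries deviated together (r = 0.375, 0.597 and 0.445 between control and rumpRNAi), above the 0.1 set for a pairing, which no label states. Pho replicates 1 and 3 of opposite conditions did so too (r = 0.351 and 0.356), so the correlation was not confined to equal numbers.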

Additional observations from a re-analysis of the deposited data

How the results depend on the processing

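Values not named here did not reverse and stayed on their side of the threshold, or, for counts, stayed within 1.5 times, apart from differences of 0 for the E(z) share between conditions with members by 4 or more lists and without control replicate 1. Leaving out each library in turn gave member minus CP190 alone differences of 46.6 to 50.6 points for Crol, 22.6 to 28.1 for Pho, 1.30 to 1.57 for Ph, 0.507 to 0.589 for Psc, 0.33 to 0.377 for E(z), 0.857 to 1.36 for Su(z)12 and 2.52 to 3.56 for Pc, none past the threshold, because 5 libraries cannot give an exact p under 0.0625. The rumpRNAi minus control share at members ranged from -0.0781 to 0.0391 for E(z), from -0.693 to 0.683 for Su(z)12 and from -2.38 to 0.371 for Pc, so the sign turned, and with lists of equal length it was 0.195 for Su(z)12. Members with Crol in one condition only numbered 72 to 198 with a library left out and 122 with lists of equal length, and 4 to 43 for Pho. Crol regions at members with a called difference numbered 5 to 146 with a library left out and 83 with a peak in at least 2 lists of each condition. They numbered 0 after GC correction, 214 with the replicate block and 11 with both. Over all Crol regions the replicate block gave 814 higher and 868 lower. Same-numbered Crol libraries correlated at 0.32, 0.17 and 0.02, of which the last lies under the 0.1 set for a pairing. Whether the numbers pair them is stated by no label. The block changed no call for Pho at members, with 0 in each fit, and left the share differences at -16.5 points for Crol and -8.05 for Pho. The number of members was 1277 to 1727 under other rules. Peak lists carry no depth, so a missing peak is no measure of absence.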

Other observations

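The 6-letter words that most separated members from regions with CP190 alone at the CP190 summit were searched after the values were known. CGATAG was in 38.4% of the windows of members and 24.2% of those with CP190 alone, and TATCGA in 47.2% and 36.1%. Between the Cg summits of members and the CP190 summits of regions with CP190 alone, the largest difference was CACACA, in 51% and 17.4%. Against Cg summits without CP190, the members had TATCGA more often (30.6% and 6.36%) and CGCCGC less often (22.6% and 41.6%), beside median GC contents of 45.0 and 51.3%.

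Crol share within the members also varied with GC content. In the third of members with the lowest GC (29.7 to 39.5%), Crol had a peak at 54.8, 64.7 and 56.2% in the control libraries and at 47.1, 31.8 and 34.1% in rumpRNAi, without overlap. In the third with the highest GC (43.2 to 56.6%) the values were 63.1, 83.0 and 79.3% and 74.2, 59.2 and 62%, which overlapped. Cg was covered less in rumpRNAi replicate 2 in both, at 52.4% and 61.5%. Kept insulator regions were about as far from members as from regions with CP190 alone, with medians of 7879 and 8034 bp.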
